A study of Mus musculus with 6 samples.

Results

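The genes described here are 10 genes of the epithelial-mesenchymal transition (EMT), namely the transcription factors Snai1, Snai2, Twist1, Twist2, Zeb1, Zeb2 and Prrx1, the cadherins Cdh1 and Cdh2, and vimentin (Vim). They were taken by gene symbol from the deposited count table, 10 of 45777 genes listed, and 10 of 10 were among the 17210 genes that passed the filter on low counts. The counts came from tumors of B16F10, a mouse melanoma cell line, grown in the hind footpad (3 tumors) or in the flank skin (3 tumors) of mice, with 1 sequencing library per tumor. The footpad bears the weight of the animal and the flank does not, and the study compared the transcriptomes of tumors at these sites. The labels give Foxn1-/- hosts, which lack a thymus and mature T cells, aged 8 weeks, for every tumor of both sites. The methods describe grafts of this line into C57BL/6J mice and, for a drug experiment, into Foxn1-null mice, and name no host for the sequenced tumors. Figure legends of the study also describe this line at both sites of Foxn1-null mice. The legend of the drug experiment names C57BL/6J mice. All tumors derived from 1 cell line. The labels say that the tumors were removed for RNA extraction, while the methods speak of tumor cells isolated from the implantation sites and name no way of separating them from host cells.

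EMT is the program by which epithelial cells lose their cell-cell junctions and gain motility, and in epithelial cancers it accompanies invasion. The SNAIL, TWIST and ZEB families and Prrx1 are the transcription factors best known for driving it, and several of them bind E-boxes and repress Cdh1 (E-cadherin). Cdh2 (N-cadherin) and Vim mark the mesenchymal state. Melanoma cells come from the neural crest and are not epithelial, and in the melanocyte lineage Zeb2 and Snai2 accompany differentiation while Zeb1 and Twist1 accompany a dedifferentiated, invasive state.

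Between 46529649 and 66364366 reads per tumor were counted on genes. CPM, the count scaled to a fixed total per library, was computed on library sizes after TMM scaling in edgeR, and 3 counts, taken as the limit of detection, equalled 0.0438 to 0.0673 CPM. All 14 melanocyte markers tested for the label lay above that limit in every tumor, and their summed level was between 10372 and 19130 CPM at the footpad and between 15205 and 26017 CPM at the flank. Foxn1 had 8 reads in footpad replicate 2 and 0 in the other 5 tumors. That library also stood apart in markers of skin and muscle, with summed levels of 689 CPM over 17 keratinocyte markers and 1194 CPM over 13 skeletal muscle markers, against 38.8 to 72.5 CPM and 11.6 to 205 CPM in the other 5 tumors.

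The promoters of 6 of the 10 genes were matched in RefSeq on GRCm38.p6, as windows from 250 bases before to 50 bases after a transcription start. The windows were searched on both strands for the E-box that SNAIL and ZEB factors bind, CAGGTG or its complement CACCTG, which 6640 of 32851 promoters of all genes held (20.2%). Snai1's window held it, 126 bases before the start, and the windows of Prrx1, Twist1, Twist2, Vim and Zeb2 held neither spelling. Snai2, Zeb1, Cdh1 and Cdh2 were not matched. Shown are the window with the E-box, set in capitals, and those of Prrx1 and Twist2, the called genes with a window, each 5′ to 3′ on the strand of the gene.
Snai1 promoter, chr2:167537945-167538244, plus strand: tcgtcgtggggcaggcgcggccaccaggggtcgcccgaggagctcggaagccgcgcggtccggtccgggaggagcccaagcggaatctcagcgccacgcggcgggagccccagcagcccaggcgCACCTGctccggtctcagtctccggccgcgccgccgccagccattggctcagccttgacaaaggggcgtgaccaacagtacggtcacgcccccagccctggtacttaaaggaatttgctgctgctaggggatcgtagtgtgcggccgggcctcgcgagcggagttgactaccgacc
Prrx1 promoter, chr1:163313601-163313900, minus strand: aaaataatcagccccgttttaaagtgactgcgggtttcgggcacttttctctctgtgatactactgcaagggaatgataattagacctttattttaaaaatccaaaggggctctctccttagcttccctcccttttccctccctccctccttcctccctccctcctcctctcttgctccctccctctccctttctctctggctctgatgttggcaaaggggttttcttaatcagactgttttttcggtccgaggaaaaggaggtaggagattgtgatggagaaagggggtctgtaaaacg
Twist2 promoter, chr1:91801211-91801510, plus strand: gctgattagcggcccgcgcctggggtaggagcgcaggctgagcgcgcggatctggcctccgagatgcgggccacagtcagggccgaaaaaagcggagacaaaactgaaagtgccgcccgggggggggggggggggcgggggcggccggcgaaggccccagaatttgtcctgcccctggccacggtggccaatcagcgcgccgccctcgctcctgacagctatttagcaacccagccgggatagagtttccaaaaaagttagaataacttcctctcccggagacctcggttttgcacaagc
The letters describe these windows only, and the whole Prrx1 window, with its transcription start, lies inside the annotated gene.

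At the footpad, 3 of the 10 genes were higher than at the flank, the transcription factors Prrx1, Twist2 and Zeb1, and 0 were lower. Genes were called by edgeR's quasi-likelihood test at a Benjamini-Hochberg adjusted p under 0.05 over all genes tested with a change of 2-fold or more, which 2.89% of all genes passed as higher and 0.872% as lower. In 7 of the 10 genes every footpad tumor lay above every flank tumor (Snai1, Snai2, Twist1, Twist2, Zeb1, Prrx1 and Vim), where 17.5% of all genes did so and 14.9% lay the other way. Values of the sites overlapped for Zeb2, Cdh1 and Cdh2. The log2 fold change (footpad over flank) of the 10 genes had a median of 1.28, against -0.004 over all genes. DESeq2, the tool of the study, called 5 of the 10 as higher (6.71% of all genes), adding Snai1 and Twist1. In edgeR, 4349 of the 17210 genes tested had an unadjusted p under 0.05, 2545 of them higher at the footpad. Without each tumor in turn, 3138 to 4551 genes did, which is the background for such counts below. In bulk tumors, fewer cells of a type and less RNA per cell cannot be told apart.

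**Figure D1:**
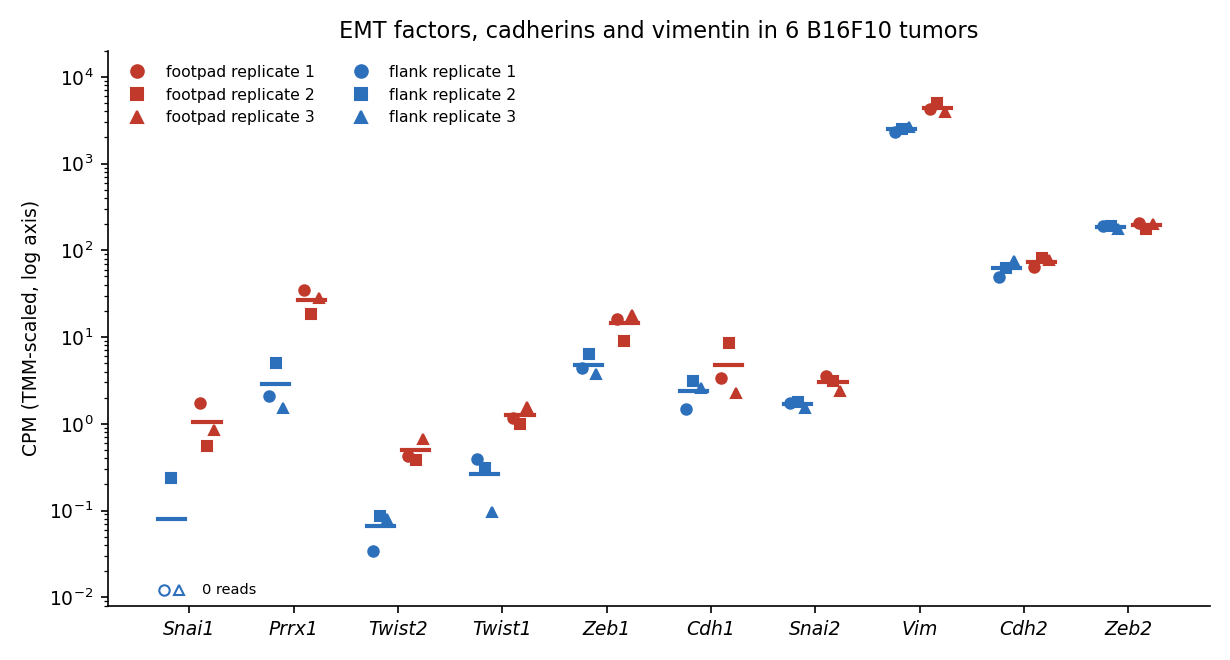
Level of each of the 10 genes in each tumor in TMM-scaled CPM on a log axis, with genes ordered by fold change, flank tumors in blue, footpad tumors in red, a bar at the mean of a site (n = 3) and open symbols at the bottom for 0 reads. The footpad tumors sit above the flank tumors in 7 genes, and the symbols mix for Cdh1, Cdh2 and Zeb2.

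Prrx1, a homeobox factor of limb and connective tissue mesenchyme, differed most among the called genes. Its gene (chromosome 1, 163245119 to 163315145, minus strand, GRCm38.p6) had 1553, 1254 and 1366 reads in footpad replicates 1, 2 and 3 and 122, 290 and 94 reads in flank replicates 1, 2 and 3. In CPM, the footpad tumors stood at 34.9, 18.3 and 27.9 and the flank tumors at 2.10, 4.96 and 1.50. The lowest footpad tumor, replicate 2, lay 3.69-fold above the highest flank tumor, replicate 2. The means were 27.0 ± 8.32 CPM and 2.86 ± 1.85 CPM (SD, n = 3 each), a log2 fold change of 3.24 (SE 0.48, edgeR adjusted p = 0.0201). The log2 fold change without each tumor stayed between 2.93 and 3.90, while the call was lost without some tumors. The call held without footpad replicate 2 or flank replicate 2. The edgeR adjusted p was 0.0812 without footpad replicate 1 and 0.0889 without footpad replicate 3. It was 0.0543 without flank replicate 1 and 0.0704 without flank replicate 3. Over all genes, higher calls fell from 497 to 26, 0, 231 and 36 without these tumors, in that order.

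The TWIST factors, basic helix-loop-helix proteins of mesoderm and dermal fibroblasts, were near the lower end of the measurable range. Twist2 (chromosome 1, 91801461 to 91848034, plus strand) had 19, 26 and 33 reads in the footpad tumors and 2, 5 and 5 reads in the flank tumors. Flank replicate 1 was under the limit of detection, and the other 5 tumors were above it. At 0.493 ± 0.158 CPM against 0.0666 ± 0.0280 CPM, Twist2 was called with a log2 fold change of 2.84 (SE 0.60, edgeR adjusted p = 0.0429). Without any 1 of the 6 tumors it was no longer called, at edgeR adjusted p between 0.0577 (without footpad replicate 2) and 0.177 (without footpad replicate 3). Twist1 (chromosome 12, 33957671 to 33959831, plus strand) had 52, 69 and 77 reads in the footpad tumors and 23, 18 and 6 in the flank tumors. The sites did not overlap for Twist1, and within the flank replicate 3 was lowest. Its means of 1.25 ± 0.291 CPM and 0.267 ± 0.155 CPM gave a log2 fold change of 2.22 (SE 0.57) that missed the threshold in edgeR (adjusted p = 0.0650) and passed it in DESeq2 (adjusted p = 0.00932).

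The ZEB factors, zinc finger and homeodomain repressors, differed from each other in level and in their values across the sites. Zeb1 (chromosome 18, 5591327 to 5775468, plus strand) measured 16.4, 8.95 and 17.8 CPM in the footpad tumors and 4.36, 6.36 and 3.72 CPM in the flank tumors. The gap between the sites was narrow, since footpad replicate 2 lay only 1.41-fold above flank replicate 2. The means of 14.4 ± 4.75 CPM and 4.82 ± 1.38 CPM gave a log2 fold change of 1.58 (SE 0.33, edgeR adjusted p = 0.0416). The call held without footpad replicate 2 (edgeR adjusted p = 0.0229) and was lost without any 1 of the other tumors, at edgeR adjusted p from 0.0525 without flank replicate 2 to 0.148 without footpad replicate 3. On the authors' FPKM values, which are scaled for length, Zeb1 missed the threshold in limma (adjusted p = 0.0793 with 0.1 added and 0.0939 with 1 added before the log2). Footpad replicate 1 had a Zeb1 count, relative to its library, of 12.1 for each FPKM, where the other 5 tumors had 6.92 to 7.61, so that this tumor stood lower in FPKM than in counts.

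Zeb2 (chromosome 2, 44983512 to 45117442, minus strand) was 207.7, 178 and 201 CPM in the footpad tumors and 189, 192 and 177 CPM in the flank tumors. The sites overlapped, with a log2 fold change of 0.07 (SE 0.13, edgeR adjusted p = 0.761) that stayed between 0.03 and 0.13 over 13 alternative settings. The antisense transcript Zeb2os overlaps the gene and had 49, 62 and 64 reads at the footpad and 85, 80 and 104 at the flank. Whether strand was used in the counting is not given in the sources used here, and reads of the 2 genes in the overlap may not be told apart.

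The SNAIL factors, zinc finger repressors of Cdh1, did not pass the edgeR test. Snai1 (chromosome 2, 167538195 to 167542814, plus strand) had 78, 38 and 42 reads in the footpad tumors and 0, 14 and 0 reads in the flank tumors. All footpad tumors exceeded flank replicate 2, the only flank tumor with a read, and the footpad tumors themselves ranged 3.16-fold. The log2 fold change was 3.69 with an SE of 1.29 (edgeR adjusted p = 0.130, DESeq2 adjusted p = 0.0433). Without flank replicate 2 the flank was at 0 reads and edgeR called the gene (adjusted p = 0.0367). Snai2 (chromosome 16, 14705852 to 14709395, plus strand), a factor of neural crest and melanocytes, had levels of 3.59, 3.12 and 2.37 CPM in footpad replicates 1, 2 and 3 and of 1.76, 1.76 and 1.50 CPM in the flank replicates. The sites did not overlap, but the difference was under 2-fold (log2 fold change 0.85, SE 0.29, edgeR adjusted p = 0.126).

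Vim, the intermediate filament of mesenchymal cells and of melanoma cells, was abundant in every tumor. The gene (chromosome 2, 13574311 to 13582826, plus strand) reached 4284, 4956 and 3959 CPM in the footpad tumors and 2312, 2497 and 2672 CPM in the flank tumors. Spread within a site was small, 4400 ± 508 CPM against 2494 ± 180 CPM, and the sites did not overlap. The 1.76-fold difference was under the 2-fold threshold, and its adjusted p was 0.0503 in edgeR and 2.55e-06 in DESeq2.

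The cadherins did not differ between sites by more than their spread. Cdh1, the junction protein of epithelial cells (chromosome 8, 106603350 to 106670247, plus strand), had 149, 588 and 110 reads in the footpad tumors and 85, 181 and 162 in the flank tumors. Footpad replicate 2 was far above the other footpad tumors, at 8.58 CPM against 3.34 and 2.25 CPM, which lay in or near the flank range of 1.47 to 3.10 CPM. The log2 fold change of 0.99 (SE 0.54, edgeR adjusted p = 0.293) was 0.23 without that tumor (edgeR adjusted p = 0.774). Footpad replicate 2 was also the highest tumor in 16 of the 17 keratinocyte markers. Of these markers edgeR called 0, with 11 at an unadjusted p under 0.05, and DESeq2 called 5 (Calml3, Krt1, Perp, Sbsn and Sfn). Without footpad replicate 2, 2 of 12 tested keratinocyte markers had an unadjusted p under 0.05 and edgeR called 0. Their part in the Cdh1 level was not tested beyond the value without that tumor.

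Cdh2, the junction protein of neural and mesenchymal cells (chromosome 18, 16588877 to 16809246, minus strand), measured 63.8, 81.1 and 78.0 CPM in the footpad tumors and 48.9, 63.1 and 74.4 CPM in the flank tumors. Footpad replicate 1 fell within the flank range, and the log2 fold change was 0.26 (SE 0.18, edgeR adjusted p = 0.416). No setting tried called either cadherin.

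**Figure D2:**
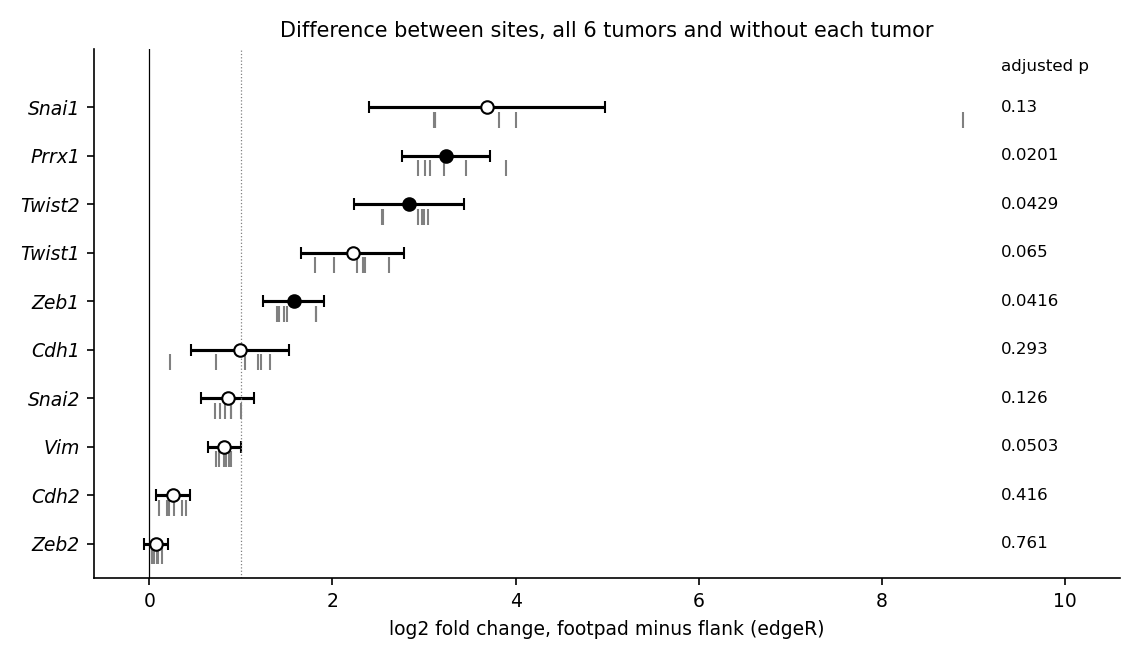
Log2 fold change (footpad over flank, edgeR) of each of the 10 genes with its SE as a bar, filled where the gene was called, and as grey ticks the value without each tumor in turn. The dotted line marks 2-fold, the adjusted p stands at the right, and the tick of Snai1 beyond 8 is a fitted value against flank tumors at 0 reads and depends on the prior count of the fit.

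Within a site the tumors did not keep 1 order across the genes. Of the 10 genes, 4 were highest in footpad replicate 1, 3 in replicate 2 and 3 in replicate 3, and footpad replicate 2 was lowest of its site in Snai1, Twist1, Twist2, Zeb1, Zeb2 and Prrx1 while highest in Cdh1, Cdh2 and Vim. Among the flank tumors, replicate 2 was highest for 7 of the 10 genes. The same tumor had the highest summed fibroblast, endothelial, macrophage and skeletal muscle markers of the flank, at 290, 203, 185 and 205 CPM.

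Levels of different genes can be compared only per length, for which the FPKM values were used. Vim stood first at both sites, at 2139 ± 346 FPKM in footpad and 1216 ± 159 FPKM in flank tumors. Zeb2 (20.0 ± 1.18 and 18.8 ± 2.45 FPKM) and Cdh2 (13.5 ± 2.57 and 11.5 ± 2.85 FPKM) followed at both sites, and neither overlapped a neighbour in the order within a site. At the footpad Prrx1 came next at 4.83 ± 1.19 FPKM, apart from all genes below it. The other 6 genes, from Zeb1 (1.70 ± 0.679 FPKM) through Snai2, Cdh1, Twist1 and Snai1 to Twist2 (0.325 ± 0.114 FPKM), overlapped their neighbours. At the flank, Snai2 (0.733 ± 0.0958 FPKM), Zeb1 (0.655 ± 0.209 FPKM), Prrx1 (0.538 ± 0.391 FPKM) and Cdh1 (0.487 ± 0.205 FPKM) overlapped one another. Below them, Twist1 (0.136 ± 0.0810 FPKM), Snai1 (0.0450 ± 0.0780 FPKM) and Twist2 (0.0375 ± 0.0221 FPKM) were apart from Cdh1 and overlapped among themselves.

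The balance of related genes within each tumor was taken as the difference of log2(FPKM + 0.1), with a two-sided exact permutation test over the 6 tumors, which cannot give a p below 0.1, and 4 such balances were tested. Zeb1 minus Zeb2 was -3.54 ± 0.45 at the footpad and -4.67 ± 0.20 at the flank, without overlap (difference 1.13, exact p = 0.1, adjusted p = 0.2). On a linear scale Zeb1 stood at 0.064, 0.0703 and 0.118 of Zeb2 in the footpad tumors and at 0.0312, 0.0415 and 0.0302 in the flank tumors, so that Zeb2 exceeded Zeb1 in every tumor. The balance of footpad replicate 1 rests on a Zeb1 FPKM that stood low for its count, as given above. Snai2 minus Snai1 was 1.19 ± 0.63 at the footpad and 2.64 ± 0.56 at the flank, also without overlap (difference -1.45, exact p = 0.1, adjusted p = 0.2). Snai1 was listed at 0 FPKM in flank replicates 1 and 3, so that the added 0.1 sets the value of those tumors, and with 1 added the difference was -0.15 (exact adjusted p = 0.533). Snai2 exceeded Snai1 in every tumor.

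Cdh2 exceeded Cdh1 in every tumor, by 17.3-, 8.54- and 31.6-fold at the footpad and by 30.7-, 18.6- and 26.3-fold at the flank. Its log2 balance overlapped between sites (3.88 ± 0.84 and 4.33 ± 0.26, exact p = 0.6). Twist1 minus Twist2 was 0.88 ± 0.07 at the footpad and 0.73 ± 0.68 at the flank (exact p = 0.8). The flank values of the latter rest on the few Twist reads given above.

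**Figure D3:**
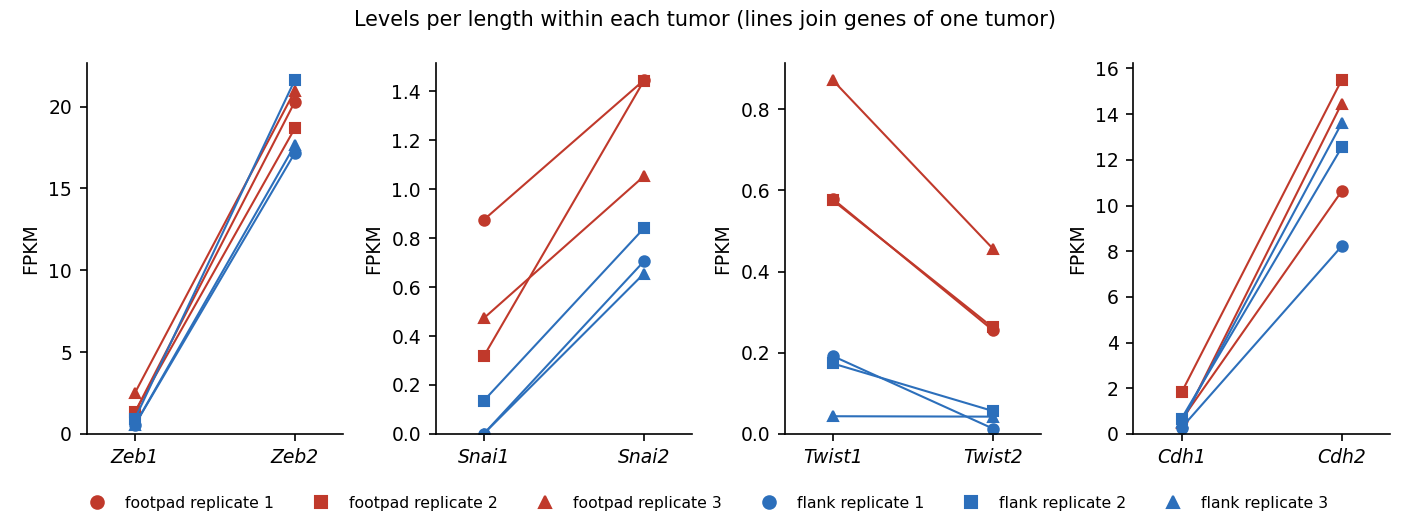
FPKM of Zeb1 and Zeb2, Snai1 and Snai2, Twist1 and Twist2, and Cdh1 and Cdh2, with a line joining the values of 1 tumor (footpad red, flank blue, each panel with its own axis). Zeb2, Snai2 and Cdh2 sit above their partner in every tumor, and the Twist lines of the flank lie near 0.

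None of the other EMT transcription factors was called by edgeR. Of 16 such factors and ID inhibitors, 13 were tested and 0 called, with 7 at an unadjusted p under 0.05, 4 of them higher and 3 lower at the footpad. Over all genes, 4349 of 17210 had such a p. DESeq2 called 3 as higher, which are named here after their values were seen: Prrx2, the paralog of Prrx1, and Id1 and Id3, inhibitors of helix-loop-helix factors. The median log2 fold change was -0.04 (all genes, -0.004). The factors with the highest mean CPM over the 6 tumors, which ranks counts and not levels per length, were Tcf12, at 309 ± 37.0 CPM in footpad and 404 ± 21.5 CPM in flank tumors (log2 fold change -0.38, edgeR adjusted p = 0.157), Tcf4 (log2 fold change -0.06, edgeR adjusted p = 0.874) and Sox4 (log2 fold change -0.57, edgeR adjusted p = 0.0945). Tcf12 and Tcf4 are partners of TWIST proteins. Gsc and T had no reads above the limit of detection in any tumor.

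Of 12 EMT inducers, the TGF-beta ligands, receptors and SMADs with Notch1, Jag1 and Hif1a, edgeR called 0, with 5 at an unadjusted p under 0.05, and DESeq2 called 2 as higher, Notch1 and Smad7, also named after their values were seen. Their median log2 fold change was 0.31. Hif1a, the oxygen-sensitive factor, was 309.9 ± 52.0 CPM in footpad and 550.1 ± 93.1 CPM in flank tumors, without overlap (log2 fold change -0.83, edgeR adjusted p = 0.0521). The TGF-beta receptors gave log2 fold changes of 0.63 for Tgfbr2 (edgeR adjusted p = 0.0539) and -0.34 for Tgfbr1 (edgeR adjusted p = 0.235).

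Mesenchymal effectors, a list of matrix, protease, integrin and contractile genes, were the longest list and held the most calls by number. edgeR called 12 of 31 as higher at the footpad and 0 as lower, with a median log2 fold change of 1.65. That is 38.7% of the list, against 41.7% of the fibroblast markers below and 2.89% of all genes. Whether tumor or host cells made these transcripts was not tested. Fn1 (fibronectin) was 1084 ± 302 CPM in footpad and 229 ± 36.1 CPM in flank tumors, a log2 fold change of 2.24 (edgeR adjusted p = 0.0105). S100a4, a calcium-binding protein also named fibroblast-specific protein, was 47.4 ± 17.5 CPM and 3.57 ± 1.40 CPM, a log2 fold change of 3.73 (edgeR adjusted p = 0.00971). The collagens Col1a1, Col3a1, Col1a2 and Col5a1 rose by log2 fold changes of 2.87 to 4.10. Fap, the protease of activated fibroblasts, rose as well (log2 fold change 2.83). The count changed when single tumors were left out, as did the count over all genes. edgeR called 2 of the 31 without footpad replicate 1 and 2 without flank replicate 3. Without footpad replicate 3 it called 0 (18 at an unadjusted p under 0.05).

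The epithelial list holds genes that EMT factors are known to repress or that mark epithelia. Of 29, 16 were tested, and edgeR called 2 as higher and 0 as lower, with 9 at an unadjusted p under 0.05, 8 of them higher. Of the 16 tested genes, 8 had every footpad tumor above every flank tumor and 2 had every footpad tumor below. The 2, among 5 tested genes with a lower mean at the footpad, were the junction scaffold genes Patj (log2 fold change -0.44, edgeR adjusted p = 0.130) and Tjp3 (log2 fold change -0.85, edgeR adjusted p = 0.215). Among the 8 was Llgl2, under 2-fold (log2 fold change 0.89, edgeR adjusted p = 0.0207). Patj, Tjp3 and Llgl2 were named after their values were seen. The tight junction gene Cldn1 was 1.73 ± 0.849 CPM in footpad and 0.141 ± 0.115 CPM in flank tumors (log2 fold change 3.60, edgeR adjusted p = 0.0375). Krt8, a keratin of simple epithelia, had 11, 12 and 12 reads in the footpad tumors and 0 in each flank tumor. Its footpad mean was 4.42-fold above the limit of detection averaged over the flank libraries. Over the highest such limit of a flank library it was 4.30-fold. Cldn3 and Cldn7 were at or under 3 counts in every tumor. Of the 29 genes, 15 were highest in footpad replicate 2, the tumor with the highest keratinocyte markers. Without footpad replicate 2, edgeR called 1 gene of the list, F11r in place of these, and without flank replicate 2 it called Cldn1. Without any 1 of the other 4 tumors it called 0, with 7 to 10 at an unadjusted p under 0.05.

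**Figure D4:**
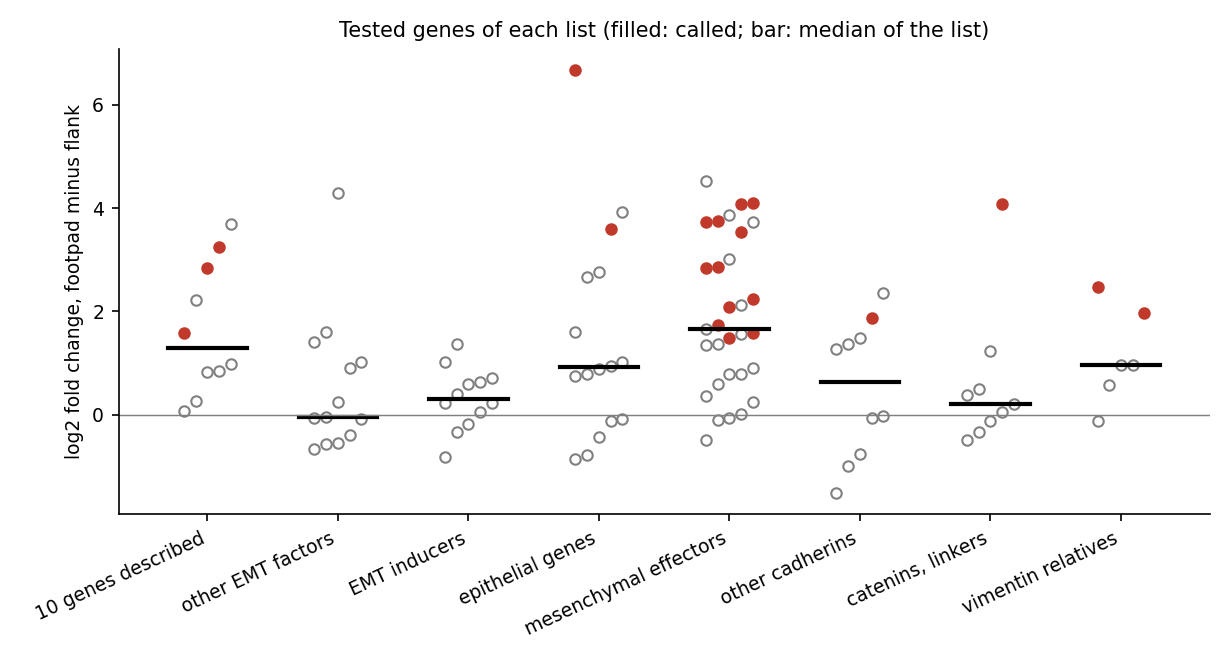
Log2 fold change (footpad over flank, edgeR) of each tested gene in 8 lists, 1 circle per gene, filled where called, with a bar at the median of the list. The 10 genes described and the mesenchymal effectors have medians of 1.28 and 1.65, the other EMT factors -0.04, and the epithelial gene above 6 is Krt8, whose fitted value against 0 flank reads is no measured fold.

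Among 26 other cadherins, catenins and linkers, 19 were tested and edgeR called 2, both higher at the footpad. Cdh13 (T-cadherin, a cadherin anchored without a cytoplasmic tail) was 20.6, 14.4 and 17.7 CPM in the footpad tumors and 5.69, 5.20 and 3.48 CPM in the flank tumors (log2 fold change 1.87, edgeR adjusted p = 0.0154). Nectin1, an immunoglobulin-like adhesion molecule of adherens junctions, was 3.60 ± 0.617 CPM and 0.212 ± 0.0350 CPM (log2 fold change 4.07, edgeR adjusted p = 0.00677). For both genes all footpad tumors exceeded all flank tumors. The median log2 fold change of the 19 was 0.20. Nectin1 stayed called without footpad replicate 1 or flank replicate 3, where Cdh13 did not, and without footpad replicate 3 edgeR called 0 of the 19 (6 at an unadjusted p under 0.05).

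Of 6 genes of intermediate filaments and their linkers related to Vim (Des, Gfap, Prph, Nes, Synm and Plec), edgeR called 2 as higher. Synm, the filament protein synemin that assembles with vimentin, was 34.7 ± 5.02 CPM in footpad and 6.26 ± 1.43 CPM in flank tumors (log2 fold change 2.47, edgeR adjusted p = 0.00677). Plec, the linker plectin that ties filaments to adhesions, was 713 ± 188 CPM and 182 ± 57.8 CPM (log2 fold change 1.97, edgeR adjusted p = 0.0195). Their log2 fold changes exceeded the 0.82 of Vim itself, a difference that was not tested. Without footpad replicate 1 or flank replicate 3 edgeR called Synm only, and without footpad replicate 3 it called 0 of the 6 (2 at an unadjusted p under 0.05).

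Markers of host cells moved with the site as well. Over 12 fibroblast markers the summed level was 837, 876 and 1033 CPM in the footpad tumors and 206, 290 and 232 CPM in the flank tumors. The matrix gene Col6a3 alone made up most of the footpad sums, at 594 ± 58.3 CPM in footpad and 62.7 ± 38.6 CPM in flank tumors. edgeR called 5 of the 12 as higher (Mfap5, Dcn, Clec3b, Col6a3 and Lum), 8 of 12 were apart between sites, and none was under the limit of detection in every tumor. These calls changed when single tumors were left out, as did the calls over all genes. Without footpad replicate 1 or 3 or flank replicate 3, edgeR called 0 of 12 (7, 7 and 8 at an unadjusted p under 0.05). It called 1 without flank replicate 1 and 8 without flank replicate 2. Over 11 endothelial markers the summed level was 304 to 326 CPM at the footpad and 168 to 203 CPM at the flank, with 4 called as higher (Robo4, Pecam1, Emcn and Tie1). Without footpad replicate 1 or 3 or flank replicate 1 or 3, edgeR called 0 of the 11 (8, 7, 8 and 7 at an unadjusted p under 0.05), and without flank replicate 2 it called 1, Tie1. Macrophage markers summed to 265 to 302 CPM at the footpad and 35.3 to 185 CPM at the flank, with 1 of 12 called (Cd68). Sums of pericyte and smooth muscle markers overlapped, at 90.9 to 143 CPM and 57.1 to 112 CPM, with 1 of 7 called (Cspg4). Without footpad replicate 1 or 3 or flank replicate 1 or 3, edgeR called 0 of the macrophage and 0 of the pericyte and smooth muscle markers, with 2 to 4 and 2 to 3 at an unadjusted p under 0.05. Prrx1, the TWIST and SNAIL factors, Zeb1 and Vim are also expressed in fibroblasts or endothelium, and the part of these cells in the differences described above was not tested.

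Summed keratinocyte markers were apart between the sites, at 50.6 to 689 CPM and 38.8 to 44.9 CPM, and those of skeletal muscle overlapped, at 39.9 to 1194 CPM and 11.6 to 205 CPM. Schwann cell markers summed to 260 to 267 CPM at the footpad and 231 to 307 CPM at the flank, and neutrophil markers ranged from 6.29 to 338 CPM among the footpad tumors and from 4.22 to 28.5 CPM among the flank tumors. edgeR called 0 markers of the 2 types, with 1 Schwann and 5 neutrophil markers at an unadjusted p under 0.05, and DESeq2 called 0 Schwann markers and 1 neutrophil marker, Csf3r. Without footpad replicate 2, edgeR called 4 of 7 tested neutrophil markers as higher (Csf3r, Retnlg, S100a8 and S100a9). Lymphocyte markers summed to at most 0.572 CPM in any tumor, with Cd3e, Cd3d and Nkg7 at or under the limit of detection throughout. Melanocyte markers, of which edgeR and DESeq2 called 0 of 14 and 1 had an unadjusted p under 0.05, had a median log2 fold change of -0.24, with 12 of 14 below 0. Without footpad replicate 2, 8 of the 14 had an unadjusted p under 0.05 and Tyr was called as lower at the footpad.

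**Figure D5:**
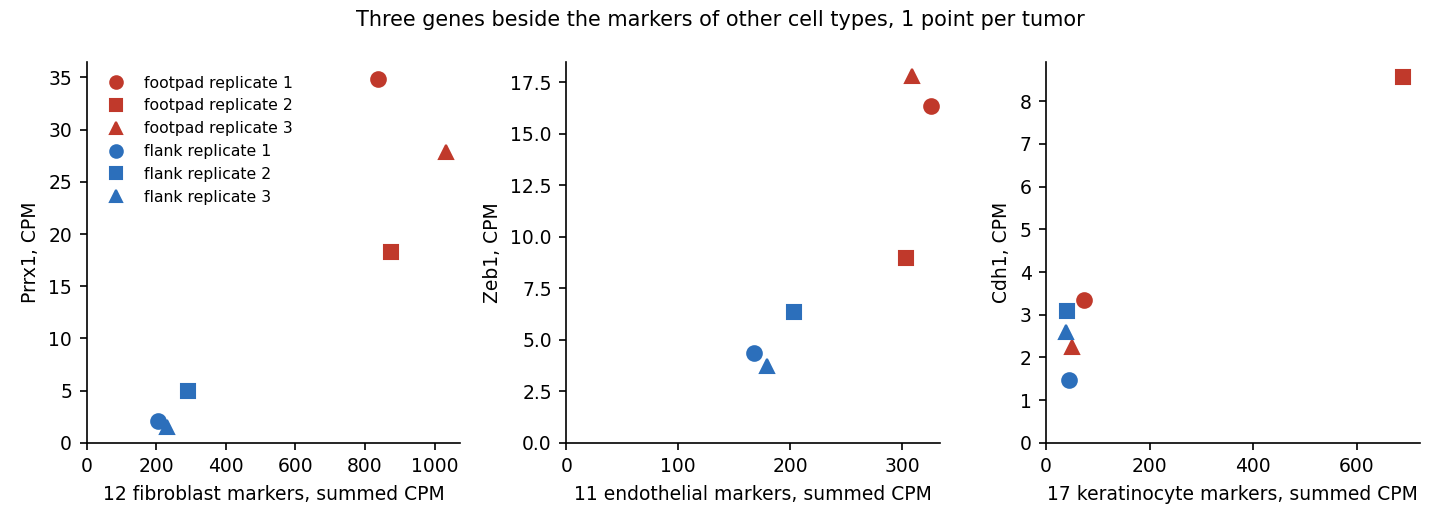
CPM of Prrx1, Zeb1 and Cdh1 (vertical axes) against the summed CPM of fibroblast, endothelial and keratinocyte markers (horizontal axes), 1 point per tumor, footpad red and flank blue. Footpad and flank tumors are apart on both axes in the first and second panels, and in the last the highest Cdh1 value, 8.58 CPM, belongs to footpad replicate 2, at 689 CPM of keratinocyte markers. The fibroblast sum of the footpad tumors is mostly Col6a3.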

How the data were processed

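Total RNA of 3 footpad and 3 flank B16F10 tumors was analysed, grouped by the sample labels. Per the labels and methods, the authors made libraries of total RNA with a stranded kit, checked reads with FastQC 0.11.7, trimmed them with Trimmomatic and aligned them to mm10 with HISAT2 2.1.0. For each gene the authors deposited raw counts, not normalized, and FPKM values scaled for length and depth. The counting program and its use of strand are not given in the sources used here.

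Counts were tested with edgeR 4.0.16 in R 4.3.3 (TMM scaling, filterByExpr, glmQLFit and glmQLFTest, Benjamini-Hochberg adjustment over 17210 genes). The SE was approximated as the log2 fold change divided by the square root of F. Alternatives were DESeq2 1.42.0, limma 3.58.1 on log2(FPKM + 1) or log2(FPKM + 0.1), other filters, scaling and thresholds, a replicate block, and leaving out each tumor. The edgeR, limma and DESeq2 fits were tested on simulated data. Python 3.11.15 was used for tables and plots.

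The 10 genes and the gene lists, written from general knowledge, were chosen with earlier results of these data known. Of each list, every called gene or otherwise the 3 of highest mean CPM were named, at most 8, with others named for absence or as markers, and 1 called gene is not reported here. The labels do not say whether the tumors came from separate mice. The methods describe injection of this line into flank and footpad at the same time, and a panel legend of the expression figure gives 3 mice. Tumors of the sites may thus share mice, but which ones do is not stated. The main fit was not paired, and p-values measure only the spread between these tumors. The common coefficient of variation was 0.338, and the depth, 46529649 counts or more per tumor, limits mainly the genes of few reads. Protein sequences were not used here.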

Additional observations from a re-analysis of the deposited data

How the results depend on the processing

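The log2 fold changes of the 10 genes stayed above 0 under all alternatives, while the calls moved. DESeq2 called 5 of the 10, limma on log2(FPKM + 1) 1, and the fit with the replicate block 0, with 7 at an unadjusted p under 0.05. Same-numbered tumors of the sites correlated by 0.061, -0.098 and -0.118 in their deviations. With 3 tumors per site, centred within each site, this cannot show whether same-numbered tumors came from the same mouse. Without footpad replicate 1 or 3 or flank replicate 1 or 3, edgeR called 0 of the 10 (5, 8, 6 and 5 at an unadjusted p under 0.05), and without footpad replicate 2 or flank replicate 2 it called 2, a range of 0 to 2. Of the 10, 7 were apart between sites with all tumors, also with upper-quartile scaling or in FPKM, and 7 to 8 without each tumor. Leaving a tumor out can hardly lower this count, so that range is no check of it. The share of all genes that were apart is given for 3 tumors per site only. Over all genes, 1154 higher and 352 lower by DESeq2, 271 and 95 by limma on log2(FPKM + 1), 0 and 0 with the replicate block (3551 at an unadjusted p under 0.05), and 1012 and 315 at an adjusted p under 0.1 compare with 497 and 150, as do 248 lower with no fold threshold, and 0 to 639 higher and 0 to 197 lower without each tumor (0 higher without footpad replicate 3, 26 without footpad replicate 1, 36 without flank replicate 3 and 231 without flank replicate 1). Of other EMT factors, DESeq2 and the threshold of 0.1 called 3, limma on log2(FPKM + 0.1) 1, and fits without each tumor 0 to 1. Of epithelial genes, DESeq2 and the threshold of 0.1 called 4, no filter 1, a minimum of 10 counts, limma on log2(FPKM + 1) and the replicate block 0 (7 at an unadjusted p under 0.05 with the block), and fits without each tumor 0 to 1. The replicate block called 0 mesenchymal effectors (20 at an unadjusted p under 0.05, and 0 to 15 called without each tumor) and 0 cadherins, catenins and linkers (6 at an unadjusted p under 0.05), of which DESeq2 called 4, limma on log2(FPKM + 1) 1, and fits without each tumor 0 to 3. The Twist1 minus Twist2 balance reversed, to -0.21, without flank replicate 3 (range -0.21 to 0.47). The ranges without each tumor were -0.87 to -0.03 for Cdh2 minus Cdh1, 0.87 to 1.29 for Zeb1 minus Zeb2 and -1.80 to -1.19 for Snai2 minus Snai1. With the replicate block, edgeR called 0 fibroblast and 0 endothelial markers (8 and 10 at an unadjusted p under 0.05). The cause of these shifts was not tested. Twist2, Snai1 and Twist1 rest on few reads.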
